A study of Mus musculus with 7 samples.

Results

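Mural cells are the cells that wrap around the endothelium of brain vessels, and 10 genes that mark them were followed in the medial prefrontal cortex (mPFC) of mice given thrombospondin-1 or saline. The genes were chosen by name as markers of these cells, with earlier results of these data known. They were looked up by their Ensembl identifiers in a table of 25467 genes, and all 10 had a row there. Taken as pericyte genes were Pdgfrb, Rgs5, Vtn, Abcc9 and Higd1b, and as contractile smooth muscle genes Acta2, Tagln, Myl9 and Mylk, while Notch3, which both cell types make, was kept apart. RNA sequencing covered 7 mice, with 1 library each. In the TSP1 group, 4 libraries came from mice labelled as treated with rhTSP1, recombinant human thrombospondin-1. In the PBS group, 3 libraries came from mice labelled as given PBS, phosphate-buffered saline. The labels name the tissue as brain and mPFC, with no mutant allele for either group, and 1.3 µg of total RNA entered each library. The sources used here state no dose, route, time, age, sex or strain, and the study asks what TSP1 does to gene expression in this cortex.

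Pericytes sit on capillaries inside the vascular basement membrane, where endothelial PDGF-B holds them through the receptor PDGFRβ. Smooth muscle cells ring arterioles and contract when myosin light chain kinase phosphorylates the regulatory light chain of myosin on filaments of smooth muscle actin. NOTCH3 on both cell types receives signals from Jagged ligands on their neighbours and keeps smooth muscle mature. In smooth muscle, serum response factor (SRF) with its coactivator myocardin binds CArG boxes before contractile genes.

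Library totals ranged from 15090336 to 20755167 counts. The 10 genes took 0.0227% to 0.0276% of all counts in the TSP1 libraries and 0.0223% to 0.0258% in the PBS libraries. Values below are counts-per-million (CPM), scaled between libraries by TMM factors, and 9 of the 10 genes passed the low-count filter, leaving out Tagln. Cortical excitatory neuron markers were plentiful in every library, with 8 genes summing to 1880 to 2200 CPM (TSP1) and 1940 to 2230 CPM (PBS). TSP1 replicate 4 stood apart in 8 striatal markers, which summed to 437 CPM there, against 144 to 167 CPM in the other TSP1 libraries and 159 to 183 CPM in the PBS libraries. It was also highest in 8 myelin markers, at 8680 CPM, against 3160 to 4440 CPM in the other TSP1 libraries and 4770 to 6020 CPM in the PBS libraries. TSP1 replicate 3 stood apart in 5 red blood cell genes, at 342 CPM, against 43.5 to 82.3 CPM in the other TSP1 libraries and 84.1 to 123 CPM in the PBS libraries. In bulk tissue, fewer mural cells and less RNA per cell cannot be told apart.

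The contractile genes are the ones whose regulatory letters are best known, so the promoter windows that carry CArG boxes are shown first, from RefSeq on GRCm38.p6. Windows of 300 bases, from 250 before to 50 after the RefSeq gene start, were found for 7 of the 10 genes, and not for Pdgfrb, Higd1b or Tagln. A box was counted as CC, 6 bases with at most 1 C or G, and GG, a form that reads the same way on both strands. This looser form was added after seeing the data. Windows of Acta2 and Myl9 each held 2 such boxes, shown in capitals below, and those of Rgs5, Vtn, Abcc9, Mylk and Notch3 held 0, against 9.98% of 32851 windows of all genes with at least 1. With only A or T allowed in the middle, 1.63% of all windows held a box, and among the members only Myl9 did, in its first box. The Mylk window (chr16:34784700-34784999, plus strand) lies inside the gene's span of 34745210 to 35002420. Its 0 is therefore for an internal start, and the outer start of Mylk had no window. In Acta2 the boxes began 84 and 34 bases before the RefSeq start. That start and the boxes lie inside the Acta2 gene span, which ends at 34255590 on the minus strand. In Myl9 the boxes began 161 and 99 bases before the RefSeq start. A match to these letters is a description and no measure of binding.
Acta2 promoter, chr19:34255324-34255623, minus strand, 5′ to 3′: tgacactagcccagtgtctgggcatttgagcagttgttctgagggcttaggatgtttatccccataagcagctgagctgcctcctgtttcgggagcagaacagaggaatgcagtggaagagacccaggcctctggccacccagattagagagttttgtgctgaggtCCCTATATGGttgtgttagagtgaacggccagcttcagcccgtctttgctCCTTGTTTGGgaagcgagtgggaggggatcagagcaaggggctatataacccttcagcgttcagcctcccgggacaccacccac
Myl9 promoter, chr2:156775214-156775513, plus strand, 5′ to 3′: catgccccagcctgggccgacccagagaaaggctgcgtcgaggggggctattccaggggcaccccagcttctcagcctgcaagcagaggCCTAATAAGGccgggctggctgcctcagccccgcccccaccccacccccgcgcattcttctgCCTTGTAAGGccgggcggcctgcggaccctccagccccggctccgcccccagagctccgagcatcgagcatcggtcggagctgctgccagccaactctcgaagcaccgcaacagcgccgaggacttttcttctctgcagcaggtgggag

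Per kilobase of exon, the pericyte genes Vtn and Rgs5 had the highest levels of the 10. Vtn, the gene of vitronectin, a secreted adhesion protein, had 25.8 ± 5.32 CPM per kb in TSP1 libraries (SD, n = 4) and 25.4 ± 2.1 in PBS libraries (SD, n = 3). Rgs5, a regulator of G-protein signalling that marks brain pericytes, had 20.8 ± 2 and 21.4 ± 1.28 CPM per kb in TSP1 and PBS libraries. Vtn was above Rgs5 in all 7 libraries, although their ranges over libraries overlapped. Myl9, which encodes the regulatory light chain of smooth muscle myosin, came next with 9.27 ± 1.36 (TSP1) and 8.73 ± 1.1 (PBS), then Pdgfrb with 5.99 ± 0.443 (TSP1) and 5.02 ± 0.0389 (PBS). Neither of those 2 overlapped its neighbours in the order. Higd1b, Notch3 and Acta2 followed in that order with overlapping ranges, between 1.64 and 3.67 CPM per kb, and Higd1b was above Notch3 in only 4 of 7 libraries. Abcc9 and Mylk lay between 0.893 and 1.81 CPM per kb. Tagln was lowest, at 0.0595 to 0.192 CPM per kb.

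**Figure D1:**
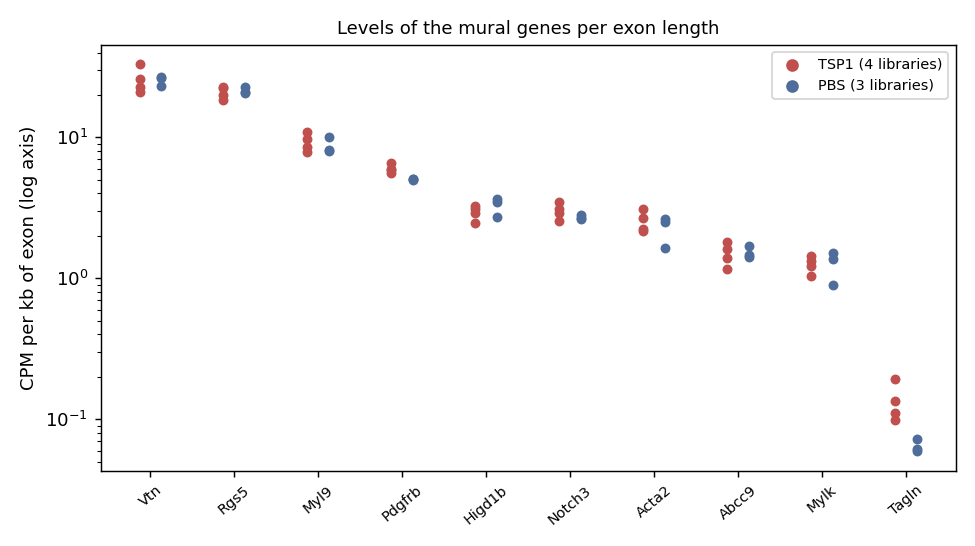
Each dot is 1 library, with CPM per kilobase of exon on a log axis and genes ordered by their mean over the 7 libraries (red, TSP1; blue, PBS). Vtn and Rgs5 lead at 18.5 to 33.1 CPM per kb, and Tagln lies under 0.2 in every library.

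None of the 9 tested mural genes passed the adjustment over all genes in the comparison of TSP1 with PBS. In edgeR's quasi-likelihood test, 0 of 9 members had a Benjamini-Hochberg FDR under 0.05, where 0% of 17211 genes did. DESeq2, edgeR's exact test and limma-voom also called 0 of the members, against 0.603%, 0.622% and 0% of all genes with an adjusted p. At an unadjusted p under 0.05 there was 1 member of 9, Pdgfrb, beside 9.65% of all tested genes (4.21% higher with TSP1 and 5.44% lower). Fitted log2 fold changes, TSP1 over PBS, were above 0 for 5 members and below 0 for 4, while 51.1% of all tested genes were above 0. Their median was 0.02, beside 0.00 for all tested genes. By role, the median was -0.03 over the 5 pericyte members, 2 of them above 0, and 0.08 over the 3 tested contractile members, 2 of them above 0. With single libraries left out, the pericyte median ranged between -0.10 (without TSP1 replicate 3) and 0.06 (without PBS replicate 3), and the contractile median between 0.00 (without PBS replicate 2) and 0.20 (without PBS replicate 1). The CPM of 1 of the 9 members, again Pdgfrb, did not overlap between the groups, as was so for 10.1% of all tested genes (4.83% higher with TSP1 and 5.26% lower).

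**Figure D2:**
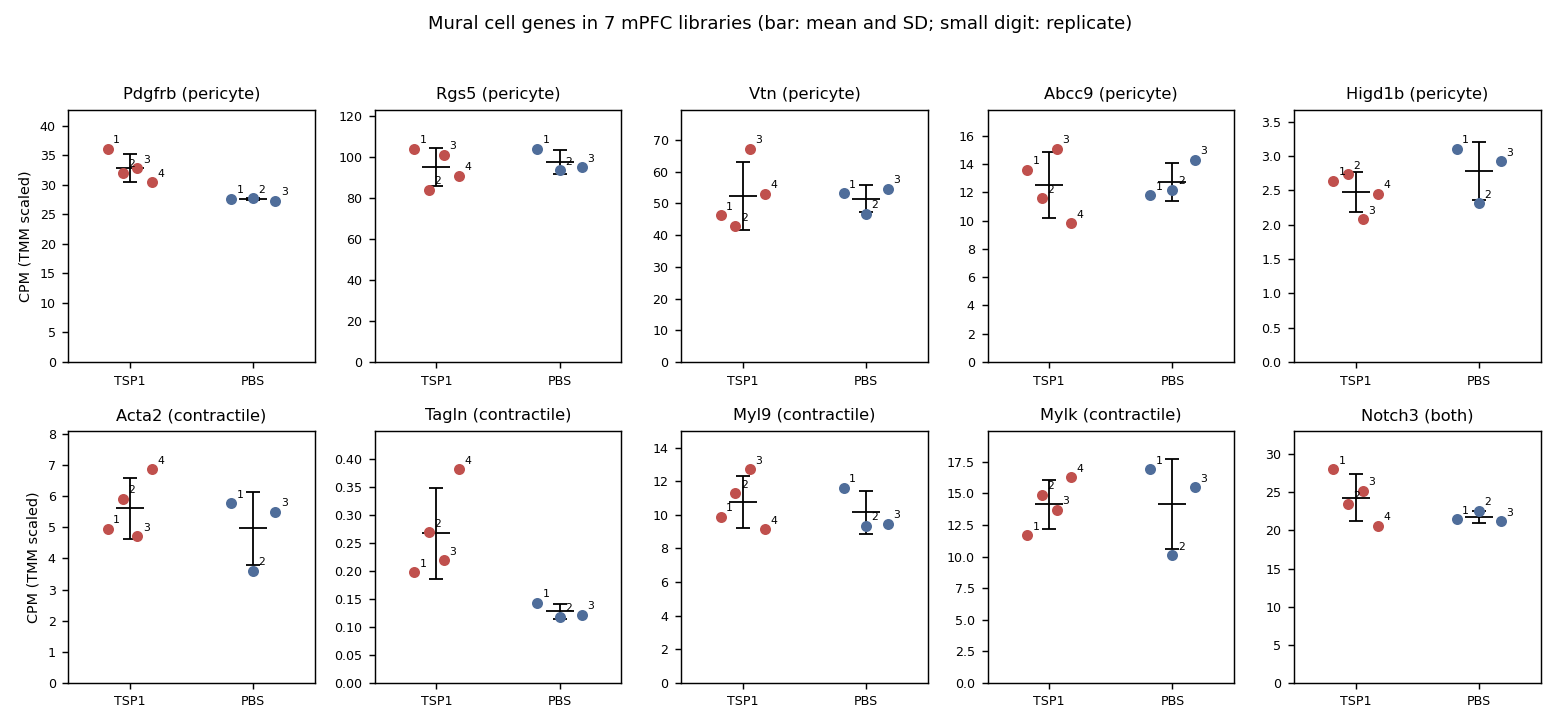
CPM of the 10 genes in each library, with TSP1 left of PBS in each panel. Dots are libraries with their replicate number, bars are group means with SD, and every axis starts at 0. Pdgfrb and Tagln are the genes whose TSP1 libraries all lie above every PBS library.

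Pdgfrb (ENSMUSG00000024620.11, chromosome 18, 61045150 to 61085061, plus strand of GRCm38, the build of all positions here) encodes the PDGF-B receptor of mural cells. It had 36.1, 32, 32.8 and 30.4 CPM in TSP1 replicates 1 to 4, against 27.6, 27.7 and 27.3 CPM in PBS replicates 1 to 3. All TSP1 libraries lay above all PBS libraries, the nearest being TSP1 replicate 4. The log2 fold change was 0.25 (SE 0.08, 95% interval 0.09 to 0.42, edgeR FDR = 0.313), a fold of 1.19, and Pdgfrb ranked 296 by p among the 17211 genes. PBS libraries differed by a CV of 0.775%, less than the 4.49% that counting alone gives for their 446 to 577 reads, while the CV of the TSP1 libraries was 7.39%.

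In the other 4 pericyte genes the groups overlapped. Rgs5 (ENSMUSG00000026678.10, chromosome 1, 169655501 to 169695813, plus strand) had 104, 83.9, 101 and 90.7 CPM in TSP1 libraries and 104, 93.4 and 94.8 CPM in PBS libraries. With 1551 to 2179 reads per library it was the most deeply counted member, its groups overlapped, and its log2 fold change was -0.04 (SE 0.08). Its 95% interval was a fold of 0.87 to 1.09, which overlaps that of Pdgfrb, 1.06 to 1.34, and the difference between these 2 genes was not tested.

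Vtn (ENSMUSG00000017344.4, chromosome 11, 78499091 to 78502324, plus strand) had 46.3, 42.8, 67.3 and 53.1 CPM in TSP1 libraries and 53.2, 46.7 and 54.7 CPM in PBS libraries (log2 fold change 0.02, SE 0.14, 95% interval -0.30 to 0.35). TSP1 replicate 3 held the highest value and TSP1 replicate 2 the lowest, so the PBS libraries lay inside the TSP1 range. Without TSP1 replicate 3 the log2 fold change of Vtn was -0.12. In that library the red blood cell genes were also highest, as given above. The sum of 12 markers of meningeal and perivascular fibroblasts was highest there too, at 151 CPM, although not every marker was. This sum was 100 to 102 CPM in the other TSP1 libraries and 106 to 132 CPM in PBS libraries. Their part in the Vtn value was not tested.

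Abcc9 (ENSMUSG00000030249.15, chromosome 6, 142587862 to 142702315, minus strand), whose product SUR2 is the regulatory subunit of the vascular ATP-sensitive potassium channel, had 13.6, 11.6, 15.1 and 9.81 CPM with TSP1 and 11.8, 12.2 and 14.3 CPM with PBS. The TSP1 libraries spread on both sides of the PBS libraries, and the log2 fold change was -0.03 (SE 0.14, 95% interval -0.33 to 0.28). Kcnj8, the pore-forming partner Kir6.1 of that channel, had 3.5, 3.5, 5.6 and 3.21 CPM with TSP1, against 7.12, 5.03 and 5.01 CPM with PBS. TSP1 replicate 3 alone reached the PBS range, and Kcnj8 had a log2 fold change of -0.54 (SE 0.21, edgeR FDR = 0.449). The channel's 2 genes thus had fitted values of different size, and that difference was not tested.

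Higd1b (ENSMUSG00000020928.14, chromosome 11, 102835849 to 102838040, plus strand), a small mitochondrial membrane protein gene enriched in brain pericytes, had 2.64, 2.74, 2.08 and 2.45 CPM with TSP1 and 3.11, 2.31 and 2.93 CPM with PBS. Its groups overlapped through PBS replicate 2, and its log2 fold change of -0.17 (SE 0.21) had a 95% interval of -0.61 to 0.27. With 38 to 65 reads per library, it had the widest interval of the 9 tested members.

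Among the contractile genes, Acta2 (ENSMUSG00000035783.8, chromosome 19, 34241090 to 34255590, minus strand), which encodes smooth muscle actin, had 4.95, 5.92, 4.72 and 6.86 CPM in TSP1 libraries and 5.78, 3.61 and 5.5 CPM in PBS libraries. PBS replicate 2 was the lowest of all and TSP1 replicate 4 the highest. The log2 fold change of Acta2 was 0.18 (SE 0.20, 95% interval -0.24 to 0.59), and it was -0.0003 without PBS replicate 2. Its reads may be shared with those of other actin genes, which have near-identical coding sequence, and the treatment of such reads in counting was not given in the sources used here.

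Mylk (ENSMUSG00000022836.10, chromosome 16, 34745210 to 35002420, plus strand), the gene of myosin light chain kinase, ordered the libraries nearly as Acta2 did. It had 11.7, 14.9, 13.7 and 16.3 CPM with TSP1 and 16.9, 10.1 and 15.5 CPM with PBS, so PBS replicate 2 was again the lowest and the PBS libraries covered the whole TSP1 range. The log2 fold change was 0.00 (SE 0.17, 95% interval -0.37 to 0.37), 0.15 without PBS replicate 1 and -0.19 without PBS replicate 2. Relative to the mean of the 7 libraries, PBS replicate 2 was at -0.53 log2 units in Acta2 and at -0.47 in Mylk. Antisense genes share 4.87% and 1.99% of the exon bases of Mylk, and the sources used here do not state if counting used strand.

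Myl9 (ENSMUSG00000067818.6, chromosome 2, 156775420 to 156781658, plus strand) had 9.89, 11.3, 12.7 and 9.15 CPM in TSP1 libraries and 11.6, 9.34 and 9.47 CPM in PBS libraries. The order of its libraries was another one, with TSP1 replicate 3 highest and TSP1 replicate 4, highest in Acta2, the lowest. Its log2 fold change was 0.08 (SE 0.14, 95% interval -0.21 to 0.38). Its reads may be shared with those of the related light chain genes Myl12a and Myl12b. Acta2 and Myl9, the members with CArG boxes of the looser form in the windows above, therefore did not share their order over libraries.

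Tagln (ENSMUSG00000032085.5, chromosome 9, 45929619 to 45936058, minus strand), the gene of the actin-binding protein transgelin, had only 3, 5, 4 and 7 reads in TSP1 libraries, against 3, 2 and 2 in PBS libraries. In CPM these were 0.198, 0.269, 0.219 and 0.381 with TSP1 and 0.143, 0.118 and 0.122 with PBS. The CPM of the groups did not overlap, which was so in this direction for 4.06% of all genes in the table, although the read counts themselves tied at 3. Summed over libraries there were 19 reads (0.272 CPM, exact Poisson 95% interval 0.164 to 0.425) with TSP1 and 7 reads (0.128 CPM, 0.0513 to 0.263) with PBS, intervals that overlap and cover counting error only. Without the low-count filter Tagln had a log2 fold change of 1.02 (SE 0.73, edgeR FDR = 0.782), in a fit where 0.0746% of 25467 genes had an FDR under 0.05. The antisense gene Gm48529 covers 62.4% of its exon bases, and had 10, 7, 8 and 2 reads in TSP1 libraries and 11, 3 and 10 in PBS libraries. The part of that overlap in the low Tagln count was not tested.

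Notch3 (ENSMUSG00000038146.7, chromosome 17, 32120820 to 32166852, minus strand) had 28, 23.4, 25.2 and 20.6 CPM with TSP1 and 21.5, 22.6 and 21.2 CPM with PBS. In 3 of the 4 TSP1 libraries it was above every PBS library, and TSP1 replicate 4 was below them all. The log2 fold change was 0.16 (SE 0.10, 95% interval -0.06 to 0.37, edgeR FDR = 0.662). Without TSP1 replicate 4, the library with the high striatal and myelin markers, it was 0.23 (edgeR FDR = 0.436, with an unadjusted p under 0.05), and without TSP1 replicate 1 it was 0.09. The antisense gene Gm17276 shares 6.03% of the exon bases of Notch3. Pdgfrb and Notch3 ordered the TSP1 libraries alike, with replicate 1 highest, then 3, 2 and 4. Over the 7 libraries, Pearson's r of their log2 CPM was 0.84. Between Pdgfrb and the other pericyte genes r was 0.12 (Rgs5), -0.08 (Vtn), 0.20 (Abcc9) and -0.35 (Higd1b). None of these likenesses was tested.

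**Figure D3:**
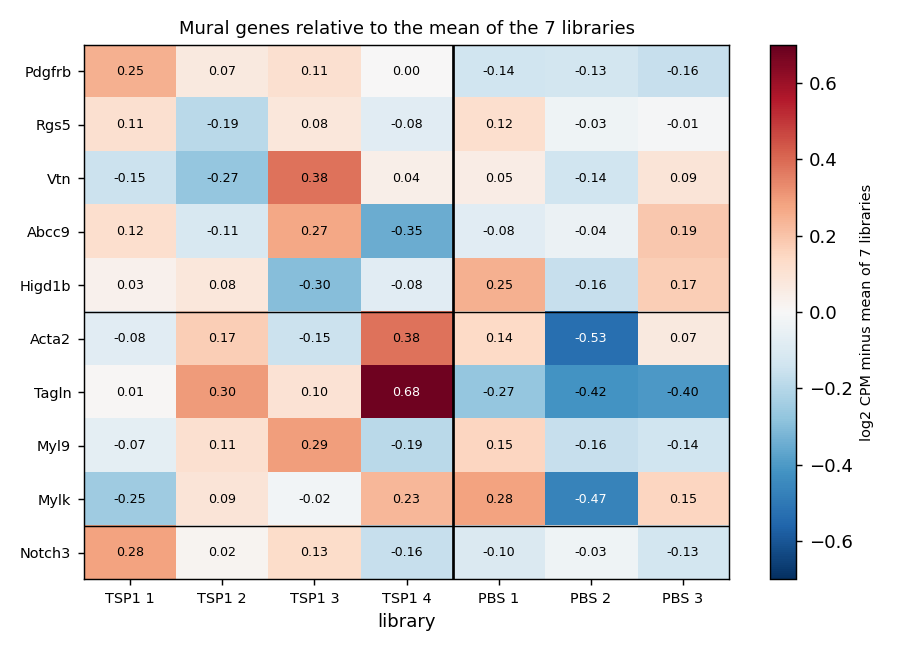
Each cell is log2 CPM (prior count 2) of a gene in a library minus the mean of that gene over the 7 libraries, with TSP1 libraries left of the black line and PBS libraries right of it. Pericyte members fill the upper rows, contractile members the middle rows and Notch3 the last, and the values farthest from 0 are Tagln in TSP1 replicate 4 (0.68, from 7 reads), Acta2 in PBS replicate 2 (-0.53) and Mylk in PBS replicate 2 (-0.47).

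Set against each other, the mean of the contractile genes spanned a wider range over the libraries than that of the pericyte genes, and neither mean separated the groups. The mean of the 5 pericyte genes stayed within 0.11 log2 units of the mean of the 7 libraries, at 0.07, -0.08, 0.11 and -0.09 in TSP1 libraries and 0.04, -0.10 and 0.06 in PBS libraries. The mean of the 4 contractile genes was -0.10, 0.17, 0.05 and 0.27 in TSP1 libraries, against 0.07, -0.39 and -0.08 in PBS libraries. The lowest contractile mean was that of PBS replicate 2 and the highest that of TSP1 replicate 4, the library highest in striatal and myelin markers, whose part in it was not tested. The contractile minus pericyte mean was 0.10 ± 0.25 in TSP1 libraries (SD, n = 4) and -0.13 ± 0.16 in PBS libraries (SD, n = 3). The difference of 0.23 is of the size of the spread within the groups. Without Tagln, with its few reads, the difference was 0.09. With Tagln kept and single libraries left out, the difference ranged between 0.14 (without TSP1 replicate 4) and 0.32 (without TSP1 replicate 1). It was 0.15 without PBS replicate 2. Single libraries were not left out of the score without Tagln. No test was run on either score, since their members were chosen with earlier results of these data known.

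**Figure D4:**
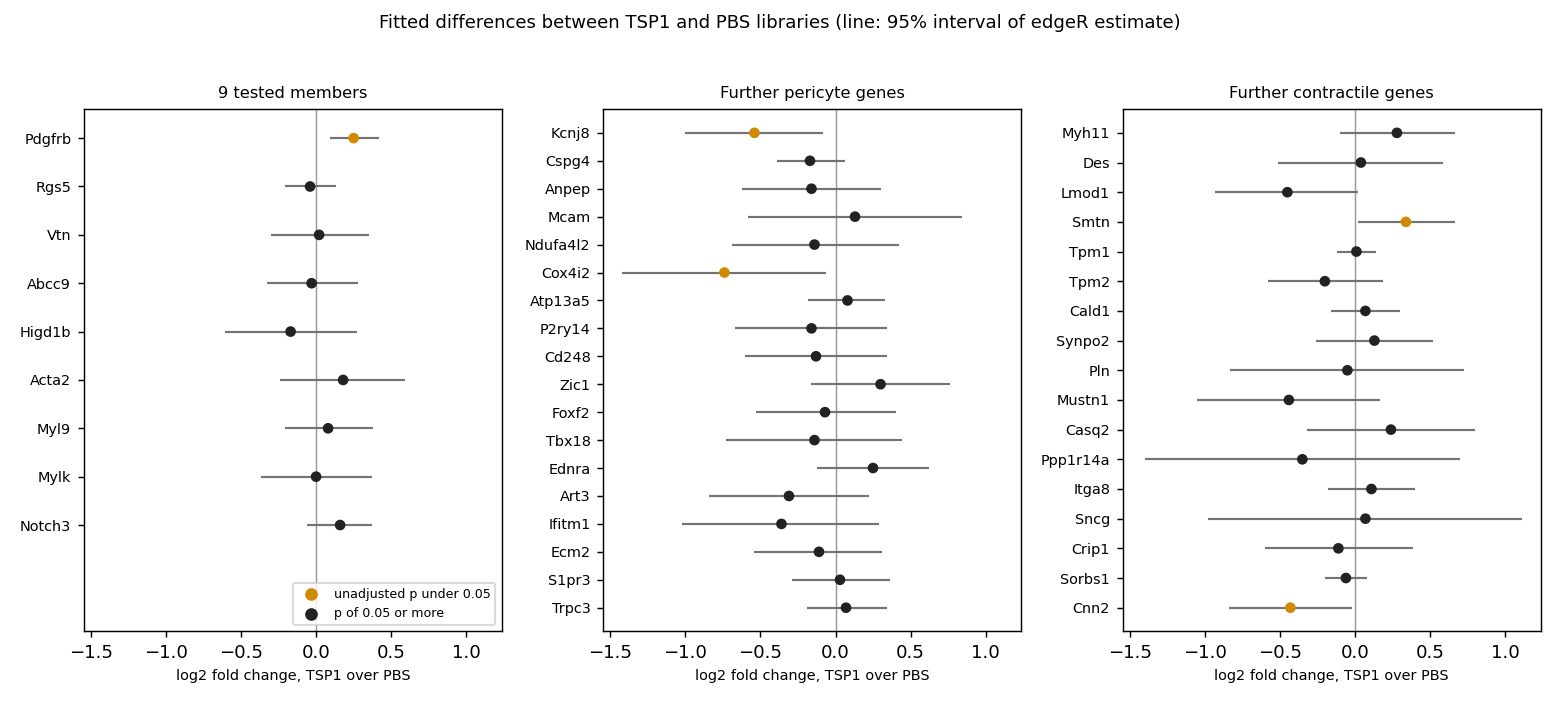
Fitted log2 fold changes of TSP1 over PBS with their 95% intervals for the 9 tested members (left), 18 further pericyte genes (middle) and 17 further contractile genes (right). Orange marks an unadjusted p under 0.05, which Pdgfrb, Kcnj8, Cox4i2, Smtn and Cnn2 had, and no gene shown had an FDR under 0.05.

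Further genes of both cell types, listed for comparison, also had no member past the adjustment. Of 18 further pericyte genes 12 had fitted values below 0, with a median of -0.13. At an unadjusted p under 0.05 were 9.65% of all tested genes in either direction, and 5.44% lower with TSP1. Of the 18 pericyte genes 2 had such a p, both lower with TSP1. These were Kcnj8 and Cox4i2, a subunit of cytochrome oxidase, which had 1.17 ± 0.446 CPM in TSP1 libraries (SD, n = 4) and 1.93 ± 0.51 CPM in PBS libraries (SD, n = 3; log2 fold change -0.74, SE 0.32, edgeR FDR = 0.479). The 20 further contractile genes, 17 of them tested, split into 9 above and 8 below 0 with a median of 0.01. Smtn, which encodes the contractile filament protein smoothelin, had 6.4, 5.92, 7.46 and 6.97 CPM with TSP1, against 5.64, 5.56 and 4.58 CPM with PBS (log2 fold change 0.34, SE 0.15, edgeR FDR = 0.492). Cnn2, a calponin gene, had 4.48 ± 0.629 CPM with TSP1 and 6.03 ± 1.5 CPM with PBS (log2 fold change -0.43, SE 0.19). Myh11, the smooth muscle myosin heavy chain, had 7.72, 7.21, 5.82 and 7.74 CPM with TSP1 and 6.93, 4.26 and 6.3 CPM with PBS. Its lowest library was PBS replicate 2, as for Acta2 and Mylk, and its log2 fold change was 0.28 (SE 0.18, edgeR FDR = 0.662). Among the further contractile genes PBS replicate 2 was also lowest in Cald1, Casq2, Itga8, Sncg and Crip1, but highest in Lmod1 and Mustn1. Lmod1 had 1.58, 1.78, 1.48 and 1.91 CPM with TSP1, against 2.1, 2.48 and 2.38 CPM with PBS. Its groups did not overlap, as in this direction for 5.26% of all tested genes (log2 fold change -0.45, SE 0.22, edgeR FDR = 0.542).

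Among genes that act with the members, none of those tested had an FDR under 0.05 in edgeR. Pdgfb, the ligand of PDGFRβ, had 38.9 ± 3.74 CPM with TSP1 and 41.4 ± 4.48 CPM with PBS (log2 fold change -0.09, SE 0.09). In its list of 8 PDGF genes, 4 were above and 4 below 0, and only Pdgfra, the receptor of oligodendrocyte precursors and fibroblasts, had an unadjusted p under 0.05 (log2 fold change -0.17, SE 0.07, edgeR FDR = 0.468). Among 17 genes of Notch3 ligands, processing and targets 12 were above 0, with a median of 0.02. Jag1, a ligand of Notch receptors, had 7.32, 8.29, 7.79 and 5.56 CPM with TSP1, against 4.59, 6.15 and 4.77 CPM with PBS. TSP1 replicate 4 alone lay inside the PBS range, and the log2 fold change of Jag1 was 0.49 (SE 0.17, edgeR FDR = 0.399). Heyl, a Notch target of mural cells, had a log2 fold change of 0.25 (SE 0.21, edgeR FDR = 0.754), and its groups overlapped. The other targets in the list went both ways, with Hey2 at -0.28 (SE 0.21), Hey1 at -0.05, Hes1 at 0.01, Nrip2 at 0.05 and Nrarp at 0.26. Their groups overlapped too.

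Around contraction, 14 genes of myosin light chain phosphorylation had a median of 0.01, with 7 on each side. Of these Myh10, a nonmuscle myosin heavy chain, had a log2 fold change of 0.18 (SE 0.07, edgeR FDR = 0.403), and the GTPase gene Rhoa -0.15 (SE 0.07, edgeR FDR = 0.498). There were 8 genes of SRF, myocardin and their partners with a row, of which 5 of the 7 tested were below 0. Srf itself had 73.4, 84.2, 76.1 and 66.3 CPM with TSP1, against 82, 90.3 and 82.1 CPM with PBS, the groups overlapping through TSP1 replicate 2 (log2 fold change -0.18, SE 0.08, edgeR FDR = 0.492). Myocd, the gene of myocardin, was not tested, at 0.426 ± 0.181 CPM with TSP1 and 0.539 ± 0.175 CPM with PBS. Among 10 genes of G-protein signalling around Rgs5, 7 were below 0 and Gnai2, an inhibitory G-protein subunit, had the smallest p (log2 fold change -0.17, SE 0.06, edgeR FDR = 0.425). Of 9 genes of vitronectin receptors and the plasminogen system 6 were below 0. Itgb5, an integrin subunit that binds vitronectin, had 49.7, 63.4, 57.7 and 50.1 CPM with TSP1, against 65.4, 66.1 and 70.8 CPM with PBS, without overlap (log2 fold change -0.29, SE 0.08, edgeR FDR = 0.308).

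Markers of the neighbours of mural cells in the vessel wall were summed for comparison. All 14 endothelial markers tested had fitted values below 0, with a median log2 fold change of -0.21, and summed to 418 to 537 CPM in TSP1 libraries and 545 to 638 CPM in PBS libraries, without overlap. At an unadjusted p under 0.05 there were 6 of these 14, all lower with TSP1, where 5.44% of all tested genes were lower at that p, and at an FDR under 0.05 there were 0 in edgeR. Of 12 fibroblast markers 7 were below 0 and their sums overlapped, at 100 to 151 CPM (TSP1) and 106 to 132 CPM (PBS). Choroid plexus markers were low, with 6 genes summing to 3.43 to 6.8 CPM (TSP1) and 3.37 to 5.07 CPM (PBS), and Ttr was listed at 0 in 1 library of each group. Outside the vessel wall, all 8 microglia markers were also below 0 and summed to 399 to 501 CPM (TSP1) and 505 to 575 CPM (PBS), without overlap, and 5 of them had an unadjusted p under 0.05. Of 8 astrocyte markers 7 were below 0, with a median of -0.21 and 3 at an unadjusted p under 0.05, and their sums overlapped, at 5250 to 6460 CPM (TSP1) and 6050 to 7060 CPM (PBS). All 8 myelin markers were below 0 with a median of -0.17, none of them at an unadjusted p under 0.05, and their sums overlapped. None of these markers had an FDR under 0.05 in edgeR. A difference between the endothelial and the mural genes was not tested, nor was the part of endothelial, fibroblast, microglia, astrocyte or myelin content in any member's value.

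The rule for likeness left out members, listed genes, predicted genes, clone names, mitochondrial genome genes and some symbols of similar form. Of the remaining tested genes, Stat5a, Tsta3, Riox2, Mtcp1 and Tfpi followed the pericyte mean most closely in log2 CPM over the 7 libraries (Pearson's r of 0.99, 0.96, 0.95, 0.94 and 0.93). For the contractile mean they were Zfp626, Filip1, Xrcc2, Actn2 and Dclk2 (0.99, 0.98, 0.98, 0.97 and 0.97). These values describe 7 points and were searched over 17211 genes, of which 28 and 124 had an r above 0.9 with the pericyte and the contractile mean.

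**Figure D5:**
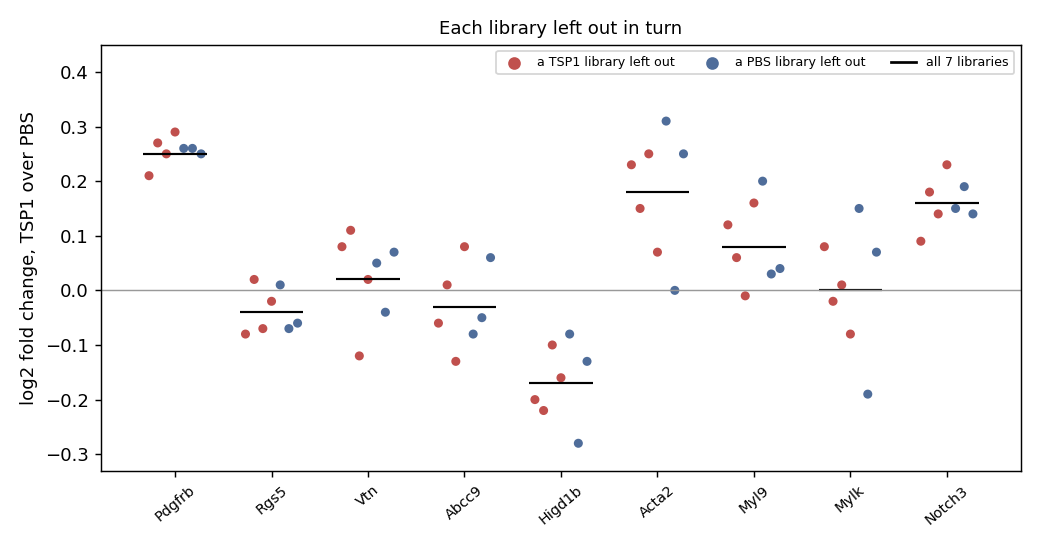
Log2 fold change of each tested member when 1 library is left out (red, a TSP1 library; blue, a PBS library), with black lines for all 7 libraries. Pdgfrb stays between 0.21 and 0.29, while Rgs5, Vtn, Abcc9, Myl9 and Mylk fall on both sides of 0, and Acta2 reaches 0 without PBS replicate 2.

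Leaving out single libraries kept the sign of 3 of the 9 tested members, Pdgfrb, Higd1b and Notch3. The log2 fold change of Pdgfrb lay between 0.21 and 0.29, that of Notch3 between 0.09 and 0.23 and that of Higd1b between -0.28 and -0.08. Over 16 alternative fits in all, Pdgfrb had an unadjusted p under 0.05 in each and an adjusted p of 0.229 to 0.674.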

How the data were processed

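The deposited table holds 1 read count per gene and library, not normalized, which is read from its whole numbers. Per the submitters' processing notes the builds are GRCm38 and mm10, while the aligner, counting tool, annotation and strand setting were not given in the sources used here. Of 25467 gene identifiers 25375 were found in GENCODE M21 (GRCm38), and no row lacked an identifier. Columns were matched to mice by the number that opens each description. The PBS and TSP1 libraries carry numbers that do not interleave, so order and treatment cannot be told apart.

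Counts were filtered with filterByExpr, scaled with TMM and fitted with edgeR 4.0.16 (R 4.3.3) in a robust quasi-likelihood model of group alone, two-sided, with Benjamini-Hochberg adjustment over 17211 genes. SE was taken from F and the fitted log2 fold change, and intervals use the fit's degrees of freedom. Fold changes are TSP1 over PBS. Alternatives were RLE factors, DESeq2 1.42.0, the exact test, limma-voom (limma 3.58.1), other filters, the replicate number as a block, length and GC offsets (natural splines with 4 degrees of freedom each) and each library left out. DESeq2 gave no adjusted p for 10876 genes. The looser CArG box was added after seeing the data. The fits were tested on simulated counts.

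Members, gene lists and tests were chosen with earlier results of these data known. Beside the members, the text names Kcnj8, Pdgfb, Myh11 and Jag1, genes of each list with an unadjusted p under 0.05 (up to 4), and the 5 genes most like each set's mean. Heyl, Myocd, Ttr, Gm48529 and Gm17276 were named after their values were seen. So were Hey1, Hey2, Hes1, Nrarp, Nrip2, Lmod1, Mustn1, Cald1, Casq2, Itga8, Sncg and Crip1. P-values measure the spread between these mice.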

Additional observations from a re-analysis of the deposited data

How the results depend on the processing

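Of 143 recomputed fold changes of the 9 tested members, 125 kept their direction and 18 turned sign, none of them larger than 0.15 in size, and the count of members at an FDR under 0.05 was 0 in every fit run. The replicate block turned Vtn to -0.01 and Abcc9 to 0.07, and Abcc9 to 0.03 together with the length and GC offsets. Mylk was at 0.02 with limma-voom and 0.0018 with at least 5 CPM in 3 libraries. Leaving out single libraries gave ranges of -0.08 to 0.02 for Rgs5, -0.12 to 0.11 for Vtn, -0.13 to 0.08 for Abcc9, -0.0003 to 0.31 for Acta2, -0.01 to 0.20 for Myl9 and -0.19 to 0.15 for Mylk. The cause of these turns was not tested. At an unadjusted p under 0.05 there were 2 members, Pdgfrb and Notch3, with the replicate block, alone or with the offsets, and 1 to 2 with single libraries left out (2 without TSP1 replicate 4). With the block, TSP1 replicate 4 stood alone in its block and did not inform the fitted difference. The block fits are therefore close to the fit without that library and do not count as separate evidence. Over all genes the count at an FDR under 0.05 was 88 with DESeq2, 107 with the exact test, 19 without the low-count filter and 0 to 9 with single libraries left out (9 without PBS replicate 3). Same-numbered libraries did not deviate together (correlations of -0.26, -0.03 and 0.01 for numbers 1, 2 and 3), so the number was not taken as pairing mice. Counts of 326 reads for Higd1b and 26 for Tagln over all libraries limit what can be seen for these genes.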
